A study of Mus musculus with 9 samples.

Results

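The genes described here are 10 members of the heat shock system in the hypothalamic paraventricular nucleus (PVN): the transcription factor gene Hsf1 and the chaperone genes Hspa1a, Hspa1b, Hspa8, Hsph1, Dnajb1, Hsp90aa1, Hsp90ab1, Hspb1 and Hspd1. They were chosen by name, and all 10 were found among the 27179 genes of the count table. RNA was sequenced in bulk from PVN tissue punches of 9 wild type male C57BL/6 mice (C57BL/6J in the methods of the study), 3 in each of 3 groups. The Control group ate a control diet with 16% of calories from fat for 12 weeks (labelled chow in the sample titles), the HFD group ate a high-fat diet with 60% of calories from fat for 12 weeks, and the HFD+Mino group ate the same high-fat diet and received the tetracycline antibiotic minocycline in drinking water at 40 mg/kg/day over the last 6 weeks. The mice entered the diets at 5 weeks of age, and the sample labels give postnatal day 35. A punch holds neurons, glia and vessels together, so that fewer cells of a type and less RNA per cell cannot be told apart.

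Chaperones bind unfolded or partly folded proteins and help them fold, refold or be handed to degradation. In an unstressed cell HSF1 is held inactive in part by HSP70 and HSP90, and when unfolded proteins draw these chaperones away, HSF1 forms trimers that bind heat shock elements in promoters. Some chaperone genes, such as Hspa8 and Hsp90ab1, are expressed at all times in nearly every cell, while others, such as Hspa1a and Hspa1b, are low at rest and strongly inducible. Neurons are known for high constitutive HSC70 and HSP90 and for a weak inducible response.

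Heat shock elements are inverted repeats of the unit NGAAN, and the promoters of the members differed in them. The search used the letters GAANNTTC and TTCNNGAA, which each read the same on both strands, in the 250 bases before each transcription start given by RefSeq (GRCm38.p6). The reference table held 9 promoters of 6 members (Hspa1a, Hspa1b, Hsph1, Dnajb1, Hspb1 and Hspd1), and the promoters of Hsf1, Hspa8, Hsp90aa1 and Hsp90ab1 were not analysed here. Of the 9 promoters, 6 (66.7%) held a match, against 4218 of 32851 promoters in the whole table (12.8%) and 12 of 58 promoters of other chaperone genes (20.7%). The 250 bases before the starts of the inducible HSP70 pair and of Hspb1 are printed 5′ to 3′ on the strand of the gene, because these genes have the clearest inducible role among the members with a match, and capitals mark the matches. The window of Hspa1a is chr17:34972157-34972406 (minus strand), that of Hspa1b chr17:34959239-34959488 (minus strand) and that of Hspb1 chr5:135887669-135887918 (plus strand).
Hspa1a: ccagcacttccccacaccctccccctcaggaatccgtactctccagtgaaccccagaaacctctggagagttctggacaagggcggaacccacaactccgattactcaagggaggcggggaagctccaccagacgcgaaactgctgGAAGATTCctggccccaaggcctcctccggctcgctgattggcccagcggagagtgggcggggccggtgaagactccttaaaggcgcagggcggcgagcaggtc
Hspa1b: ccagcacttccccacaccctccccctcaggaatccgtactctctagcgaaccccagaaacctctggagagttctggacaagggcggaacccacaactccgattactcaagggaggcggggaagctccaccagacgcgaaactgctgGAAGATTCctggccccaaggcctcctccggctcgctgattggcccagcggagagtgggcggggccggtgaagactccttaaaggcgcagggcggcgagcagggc
Hspb1: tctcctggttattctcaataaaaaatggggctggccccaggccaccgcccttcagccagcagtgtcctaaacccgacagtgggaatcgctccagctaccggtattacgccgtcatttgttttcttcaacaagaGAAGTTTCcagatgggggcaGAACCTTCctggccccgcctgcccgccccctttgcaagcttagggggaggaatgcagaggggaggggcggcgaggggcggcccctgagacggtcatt

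The windows of Hspa1a and Hspa1b differed at 3 of 250 bases, and both held 1 match that began 104 bases before the start. Hspb1 held matches that began 117 and 97 bases before its start. For the other members with a match, a stretch of 30 bases is printed. That of Hsph1 (chr5:149636351-149636380, minus strand) holds 1 match, which began 33 bases before the first of its annotated starts and 54 bases before the second. That of Hspd1 (chr1:55088053-55088082, minus strand) holds 3 overlapping matches, at 144, 139 and 134 bases before the second of its starts.
Hsph1: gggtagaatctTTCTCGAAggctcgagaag
Hspd1: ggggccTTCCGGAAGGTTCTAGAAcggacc

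Hspd1 was the 1 promoter of 9 with the longer form of 3 inverted units, which 0.466% of all promoters held. Among promoters of other chaperone genes, 3 of 58 held it (5.17%). No match was found in either window of Dnajb1 or in the window of the first Hspd1 start, which says only that these letters were not in those windows.

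**Figure D1:**
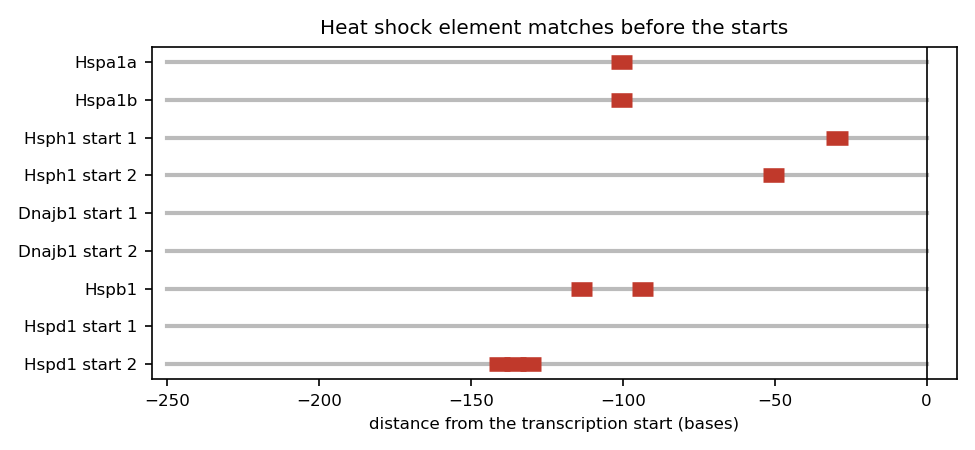
Positions of heat shock element matches (filled blocks) in the 250 bases before each of 9 annotated transcription starts of 6 members. The horizontal axis is the distance from the start in bases. The matches of Hspa1a and Hspa1b lie at the same distance, Hspb1 holds 2 and the second start of Hspd1 holds 3 that overlap, and 3 windows hold none.

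Libraries held between 17728590 (HFD replicate 1) and 42326213 (Control replicate 1) counts, and 17344 genes passed the filter on low counts, among them all 10 members. Several libraries stood apart. Control replicate 1 had almost no transcripts of the PVN hormone genes Avp (0.149 CPM, read counts scaled to library size by TMM) and Oxt (0.770 CPM) or of the PVN identity gene Sim1 (0.770 CPM), and no count of Otp, and its summed level of 5 oligodendrocyte markers was 27773 CPM against 2131 to 6561 in the other 8. HFD+Mino replicates 1 and 2 had Avp at 28049 and 22180 CPM against at most 1984 CPM elsewhere, and the shortest genes sat 1.03 and 0.87 above their mean over all samples on the log2 scale in these libraries. The longest genes sat 0.32 to 0.46 above their mean in the 3 HFD libraries and below it in the 3 HFD+Mino libraries.

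In the PVN the members spanned a wide range of levels. Genes were compared per kilobase of exon union, which joins the exons of all annotated transcripts of a gene. On this scale Hsp90ab1 (the constitutive cytosolic HSP90) had the highest level at 647 CPM per kb, followed by Hspa8 (HSC70, the constitutive HSP70) at 338, Hsp90aa1 (the inducible HSP90) at 143, Hspd1 (the mitochondrial chaperonin HSP60) at 73.9, Hsph1 (HSP110, a nucleotide exchange factor of HSP70) at 48.5 and Dnajb1 (an HSP40 that delivers substrates to HSP70) at 46.2. Hspb1 (the small heat shock protein HSP25) was at 9.18 and Hsf1 at 8.75 CPM per kb, and the inducible HSP70 genes were lowest, Hspa1a at 1.78 and Hspa1b at 1.30 CPM per kb. Hsp90ab1 thus stood at percentile 99.7 and Hspa1b at percentile 31.6 of the tested genes. The order depends on the length used. The exon union was 7099 nt for Hsf1 and 7266 nt for Hsph1, while their longest transcripts held 3133 and 4764 nt. Some neighbours in this order did not differ beyond the spread of the groups. Dnajb1 was above Hsph1 in Control (52.5 ± 13.9 against 50.7 ± 9.75 CPM per kb, mean ± SD, n = 3) and in HFD+Mino (43.9 ± 10.1 against 35.8 ± 4.33) and below it in HFD (42.1 ± 8.49 against 58.9 ± 6.07). Hsf1 was above Hspb1 in Control (10.4 ± 2.20 against 8.09 ± 1.42 CPM per kb) and below it in HFD+Mino (9.01 ± 3.37 against 12.6 ± 8.59).

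**Figure D2:**
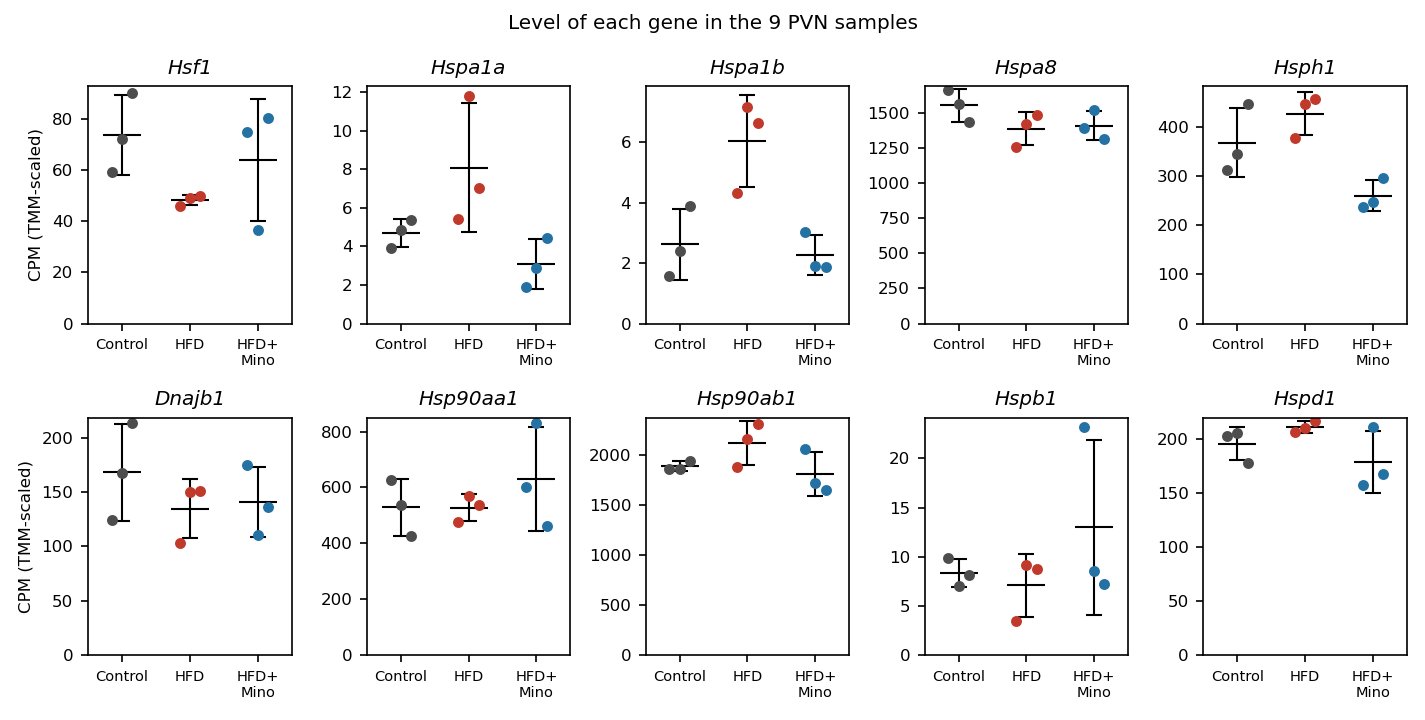
Level of each of the 10 genes in TMM-scaled CPM (vertical axes from 0) in each mouse, by group. Points are mice, long bars are means and error bars are SD (n = 3). The HFD points of Hspa1a and Hspa1b lie above all 6 others, an order that 13.4% of all tested genes showed. The HFD+Mino points of Hsph1 lie below all 6 others, an order whose share was not counted.

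The comparisons asked whether the diet moved these genes and whether minocycline moved them back. Hspa1a and Hspa1b were highest in HFD, and Hspa1a, Hspa1b and Hsph1 were lower in HFD+Mino than in HFD by 2.62-fold, 2.67-fold and 1.64-fold. These differences had false discovery rates (FDR, Benjamini-Hochberg adjusted p over all 17344 genes in the quasi-likelihood test of edgeR) between 0.030 and 0.033, short of the threshold of 0.01 used here. At that threshold with a 1.5-fold difference, 0 of 10 members were called in any comparison. In the 3-way test over the groups, 0.917% of all tested genes were called HFD-higher and 1.21% HFD-lower. Between HFD and Control, 0.317% were called higher and 1.42% lower, and between HFD+Mino and HFD 1.98% were called higher and 2.16% lower. Between HFD+Mino and Control the quasi-likelihood test called 0% of genes, while 3697 genes had an unadjusted p under 0.05. Other fits called some genes there. DESeq2 called 1.56% and the likelihood ratio test of edgeR 0.611%. The quasi-likelihood test called 3.18% with the replicate numbers of Control and HFD+Mino as a block, and 6.28% without HFD+Mino replicate 3. At an unadjusted p under 0.05 the members counted 3 in the 3-way test (39% of all tested genes) and 3 between HFD+Mino and HFD (41.3% of genes), Hspa1a, Hspa1b and Hsph1 in both, 1 for the diet alone (Hspa1b, 20.5% of genes) and 1 for HFD+Mino against Control (Hsph1, 21.3% of genes). At FDR under 0.01 DESeq2 called 1 member in the 3-way test (13.5% of all genes) and 3 between HFD+Mino and HFD (22.4%). It called 0 members in HFD against Control (6.84% of all genes) and in HFD+Mino against Control (1.56%).

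At the looser FDR of 0.05 with a 1.5-fold difference, 3 of 10 members were lower and 0 higher in HFD+Mino than in HFD, where 12.9% of all tested genes were lower and 14.6% higher. Between HFD and Control 0 members passed in either direction, where 2.57% of genes were higher and 3.21% lower. In the 3-way test at FDR under 0.05 with the 1.5-fold distance, 0 members passed, where 6.37% of genes were HFD-higher and 6.65% HFD-lower. The comparisons share the HFD samples and are not independent of each other. The median log2 fold change of the 10 members was 0.05 for HFD against Control, -0.10 for HFD+Mino against HFD and -0.17 for HFD+Mino against Control, beside 0.00, 0.01 and -0.02 over all tested genes.

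**Figure D3:**
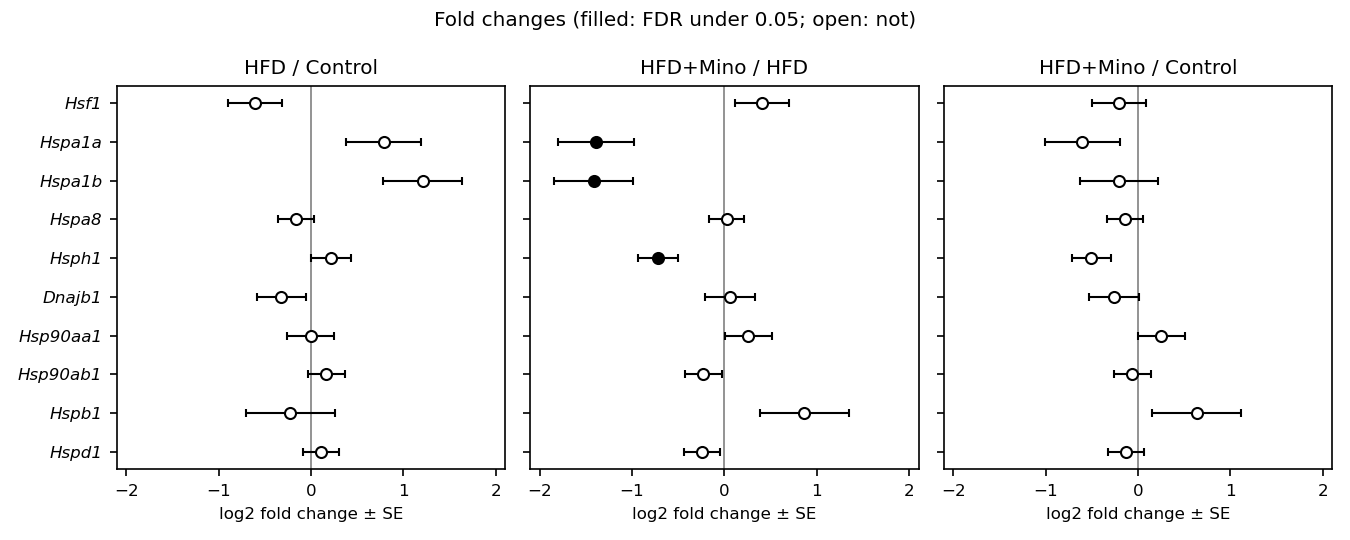
Log2 fold changes of the 10 genes (horizontal axes, error bars are SE) for HFD over Control, HFD+Mino over HFD and HFD+Mino over Control. Filled points have an FDR under 0.05. Hspa1a, Hspa1b and Hsph1 in the middle panel are the filled points, all to the left of 0, and none is filled in the outer panels.

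Hsf1 (chr15:76477362-76501155, GRCm38) encodes the master regulator of the response. Its level was 59.2, 72.2 and 90.4 CPM in the Control mice, 46.2, 49.0 and 49.96 CPM in the HFD mice and 74.9, 36.6 and 80.5 CPM in the HFD+Mino mice. Every HFD mouse was below every Control mouse, while the HFD+Mino mice lay on both sides of the HFD group. How many of all tested genes showed this order of HFD and Control was not counted. The means were 73.9 ± 15.6, 48.4 ± 1.95 and 64.0 ± 23.9 CPM (SD, n = 3). The log2 fold change between HFD and Control was -0.61 ± 0.29 (SE, FDR 0.266), and without Control replicate 1 it was -0.75 (FDR 0.322). Between HFD+Mino and HFD it was 0.40 ± 0.29 (FDR 0.321), 0.68 (FDR 0.0550) without HFD+Mino replicate 2 and 0.20 (FDR 0.626) without HFD+Mino replicate 3. The longest genes sat high in HFD. With each sample's trend on exon length removed, the Hsf1 difference between HFD+Mino and HFD was 0.86 (FDR 0.0465) and that between HFD and Control -0.83 (FDR 0.0992). That adjustment used the exon union of Hsf1, 7099 nt, while its longest transcript held 3133 nt. The tested genes most like Hsf1 over the 9 samples were Arhgef25 (Pearson r 0.983), Pisd-ps1 (r 0.978) and Matk (r 0.978), by log2 CPM.

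Hspa1a (chr17:34969359-34972156, minus strand) and Hspa1b (chr17:34956429-34959238, minus strand) are neighbouring copies that encode the stress-inducible HSP70. Hspa1a stood at 3.90, 4.86 and 5.36 CPM in Control, 5.42, 11.8 and 7.02 CPM in HFD and 1.92, 2.90 and 4.45 CPM in HFD+Mino. The lowest HFD mouse was only just above the highest Control mouse, and HFD replicate 2 was well above the rest. The means were 4.70 ± 0.741, 8.09 ± 3.34 and 3.09 ± 1.28 CPM. The log2 fold change was 0.78 ± 0.40 between HFD and Control (FDR 0.2996) and -1.39 ± 0.41 between HFD+Mino and HFD (FDR 0.0302). Without HFD replicate 2 the latter was -1.01 (FDR 0.145), and the former was 0.40 (FDR 0.714). Without Control replicate 1 the difference between HFD and Control was 0.66 (FDR 0.627).

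Hspa1b stood at 1.56, 2.40 and 3.89 CPM in Control, 4.32, 7.16 and 6.65 CPM in HFD and 3.05, 1.89 and 1.86 CPM in HFD+Mino. All 3 HFD mice were above the other 6, and Control and HFD+Mino overlapped. The means were 2.62 ± 1.18, 6.04 ± 1.52 and 2.27 ± 0.676 CPM. Hspa1b had the largest difference between HFD and Control among the members, a log2 fold change of 1.21 ± 0.43 (2.31-fold, FDR 0.135), and without Control replicate 1 it was 0.94 (FDR 0.380). Between HFD+Mino and HFD it was -1.42 ± 0.43 (FDR 0.0333), and between HFD+Mino and Control -0.21 ± 0.43 (FDR 0.797). The tested genes most like Hspa1b were 9530082P21Rik (Pearson r 0.974 over 9 samples), Baz1b (r 0.972) and Pdzk1 (r 0.972).

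Hspa1a and Hspa1b were the 2 members whose HFD mice were all above the other 6 samples, an order that 13.4% of all tested genes showed. In 0 members were the HFD mice all below the other 6, an order that 9.62% of genes showed. Shares of genes were not counted for orders between 2 groups alone or with HFD+Mino as the extreme group. The counts behind these genes were small, 56 to 408 per sample for Hspa1a and 51 to 267 for Hspa1b, and the copies share sequence. Of the windows of 50 nt in their transcripts, 58.8% of those of Hspa1a also occurred in Hspa1b and 62.3% of those of Hspa1b in Hspa1a, so that the split of reads between the copies is uncertain, and Hspa1a also shares 564 nt of exon with Gm20481 on the opposite strand. Their counts were therefore also summed, an alternative chosen after the data were seen. The sum was 5.46, 7.26 and 9.24 CPM in Control, 9.74, 19.0 and 13.7 CPM in HFD and 4.96, 4.79 and 6.31 CPM in HFD+Mino. All HFD mice were above all others in the sum as well. Summed, HSP70 was 1.93-fold higher in HFD than in Control (log2 fold change 0.95 ± 0.33, FDR 0.124) and 2.64-fold lower in HFD+Mino than in HFD (-1.40 ± 0.33, FDR 0.0148), and the 3-way FDR was 0.0287 against 0.0666 for Hspa1a and 0.0513 for Hspa1b alone.

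Hspa8 (chr9:40801276-40805202), the constitutive partner of this pair, held between 1260 and 1670 CPM over the 9 mice. The groups overlapped, with means of 1557 ± 117 CPM in Control, 1391 ± 118 CPM in HFD and 1413 ± 104 CPM in HFD+Mino. Its log2 fold changes were -0.16 ± 0.19 between HFD and Control (FDR 0.670) and 0.02 ± 0.19 between HFD+Mino and HFD (FDR 0.943). Of its 50-nt windows 52.7% occur in other genes, mostly the copy Gm15459, and its annotated exons share 86 to 90 nt each with Snord14c, Snord14d and Snord14e.

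The ratio of inducible to constitutive HSP70 within a library does not depend on scaling. Hspa1a and Hspa1b together made up 0.326%, 0.461% and 0.640% of the HSP70 counts (Hspa1a, Hspa1b and Hspa8) in Control, 0.767%, 1.32% and 0.910% in HFD and 0.355%, 0.313% and 0.476% in HFD+Mino. The HFD shares were all above those of the other 6 mice. The mean shares were 0.476 ± 0.157%, 0.997 ± 0.285% and 0.381 ± 0.0846% (SD, n = 3). The exact two-sided permutation test gave p = 0.1 for HFD against Control and for HFD+Mino against HFD, which is the smallest p that 3 against 3 mice can give, and p = 0.6 for HFD+Mino against Control.

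**Figure D4:**
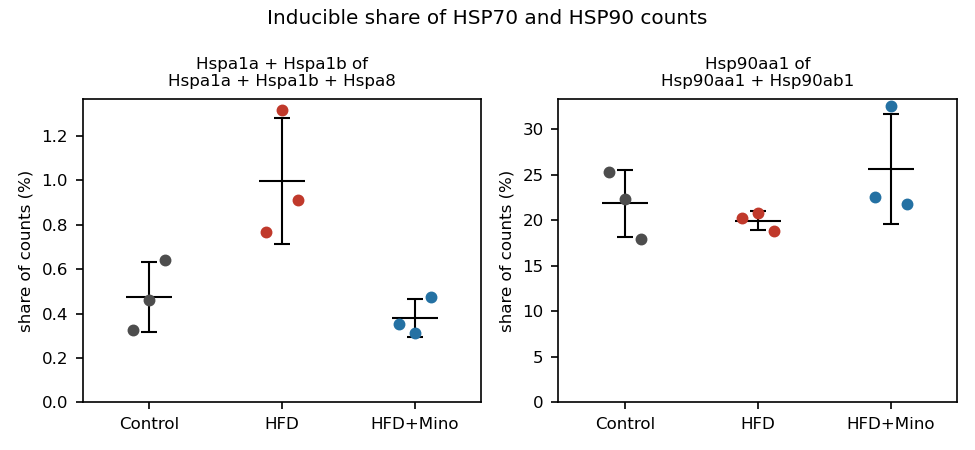
Share of inducible paralogs in percent of counts for each mouse (points), with mean (long bar) and SD (error bar, n = 3). The left panel shows Hspa1a and Hspa1b among Hspa1a, Hspa1b and Hspa8, with the HFD mice above the other 6. The right panel shows Hsp90aa1 among Hsp90aa1 and Hsp90ab1, with HFD+Mino replicate 2 at 32.6% as the highest point.

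Hsph1 (chr5:149616843-149636498, minus strand) acts with HSP70 in pulling proteins out of aggregates. Its level was 312, 346 and 448 CPM in Control, 377, 448 and 458 CPM in HFD and 237, 247 and 296 CPM in HFD+Mino. Every HFD+Mino mouse was below every mouse of the other groups, while Control and HFD overlapped. The share of all tested genes with that order was not counted. The means were 369 ± 70.8, 428 ± 44.1 and 260 ± 31.5 CPM. The log2 fold change was 0.21 ± 0.21 between HFD and Control (FDR 0.607), -0.72 ± 0.21 between HFD+Mino and HFD (FDR 0.0318) and -0.50 ± 0.21 between HFD+Mino and Control (FDR 0.210). Hsph1 has the longest exon length of the members, 7266 nt, and with the trend on exon length removed its difference between HFD+Mino and HFD was -0.25 (FDR 0.312) and that between HFD and Control -0.02 (FDR 0.965). Under the same adjustment Hspa1a stood at -1.55 (FDR 0.0290) and Hspa1b at -1.66 (FDR 0.0275) between HFD+Mino and HFD.

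The 3 genes under an FDR of 0.05 were sensitive to single libraries. Without Control replicate 1 all 3 stayed under 0.05, and without HFD+Mino replicate 3 the count was 2. Without Control replicate 2, or any 1 of the 3 HFD libraries, or HFD+Mino replicate 1 or 2, the count was 0. The share of all tested genes called between HFD+Mino and HFD at FDR under 0.01 fell in these omissions too. It was 4.15% with all libraries and 0.828% without Control replicate 2. Without an HFD library it was 0.162% to 0.328%, and without HFD+Mino replicate 1 or 2 it was 0.59% or 1.89%. Without Control replicate 1 it was 5.27%, and without HFD+Mino replicate 3 it was 21.4%. The fold changes over these 9 omissions ran from -1.75 to -1.01 for Hspa1a, from -1.69 to -1.28 for Hspa1b and from -0.82 to -0.65 for Hsph1. Deviations of same-numbered Control and HFD+Mino libraries correlated weakly (r 0.135 to 0.292). Only the counts give this pairing, and the differently numbered Control replicate 2 and HFD replicate 1 reached r of 0.167. When the numbers of Control and HFD+Mino entered the fit as a block, Hspa1a (-1.46, FDR 0.00998) and Hsph1 (-0.72, FDR 0.00337) passed the FDR of 0.01. This was between HFD+Mino and HFD, where 25.6% of all tested genes were called in that fit. With the block over all 9 samples, Hspa1b (-1.36, FDR 0.0543) was no longer under 0.05. When each sample's trend on the highest GC content of any 100 nt in the transcript was removed, an alternative chosen after the data were seen, Hspa1a (FDR 0.0423) stayed under 0.05, and Hspa1b (-1.20, FDR 0.0504) and Hsph1 (-0.58, FDR 0.0561) did not.

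**Figure D5:**
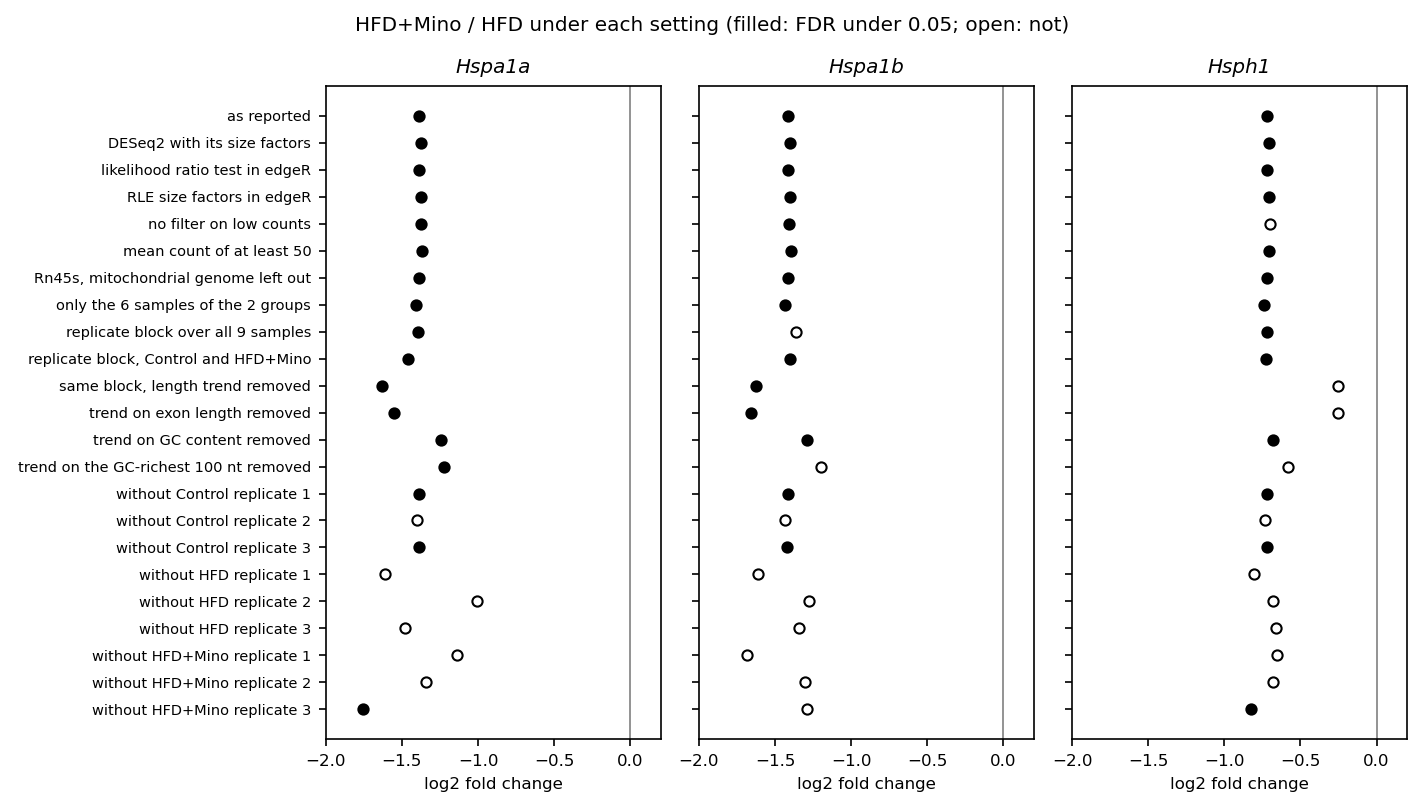
Log2 fold change of Hspa1a, Hspa1b and Hsph1 between HFD+Mino and HFD (horizontal axes) under each setting of the analysis and with each library left out in turn (rows). Filled points have an FDR under 0.05 and open points do not. Every point lies below 0, and those of Hsph1 move to -0.25 when the trend on exon length is removed.

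The levels of some marker lists differed between the same groups. The summed level of 5 astrocyte markers was 1560 to 1722 CPM in Control, 2096 to 2217 CPM in HFD and 961 to 1506 CPM in HFD+Mino, an order like that of Hspa1a and Hsph1. Of the 5, 3 were lower in HFD+Mino than in HFD at FDR under 0.05 with 1.5-fold, where 12.9% of all tested genes were lower. The sum of 6 microglia markers was 160 to 216, 226 to 240 and 177 to 223 CPM, and 2 of the 6 were higher and 0 lower in HFD+Mino than in HFD at that FDR with 1.5-fold (14.6% of all tested genes were higher). Of 6 neuron markers 2 were lower, of 5 endothelial markers 1 was lower, and of 5 oligodendrocyte markers 0 passed. The sums of these lists overlapped between HFD and HFD+Mino. The ependymal and choroid plexus sum was 63.6 to 114 CPM in HFD and 116 to 192 CPM in HFD+Mino. The sum of 9 immediate early genes, which also respond to handling and sampling, was 203 to 571 CPM in Control, 212 to 399 CPM in HFD and 80.7 to 211 CPM in HFD+Mino. The precursor of ribosomal RNA, Rn45s, was at 3477 to 3829 CPM in HFD and at most 1346 CPM elsewhere. The part of these differences in the chaperone results was not tested.

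Dnajb1 (chr8:83608175-83612653), which stimulates the ATPase of HSP70 and, when HSP70 is free, helps to switch HSF1 off, ranged from 103 to 213 CPM with all groups overlapping. Its means were 168 ± 44.7 CPM in Control, 135 ± 27.2 CPM in HFD and 141 ± 32.3 CPM in HFD+Mino. The log2 fold change was -0.32 ± 0.27 between HFD and Control (FDR 0.536) and 0.06 ± 0.27 between HFD+Mino and HFD (FDR 0.885).

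The HSP90 genes, whose products mature kinases and steroid receptors, likewise did not pass. Hsp90aa1 (chr12:110691036-110696395, minus strand) had means of 530 ± 102 CPM in Control, 528 ± 46.8 CPM in HFD and 630 ± 187 CPM in HFD+Mino, where replicate 2 reached 830 CPM. Its log2 fold change between HFD+Mino and HFD was 0.26 ± 0.25 (FDR 0.476), and without HFD+Mino replicate 2 it was 0.0089 (FDR 0.983). Of its 50-nt windows 51.5% occur in the copy Gm12346. Hsp90ab1 (chr17:45567778-45573261, minus strand) was at 1890 ± 49.3 CPM in Control, 2121 ± 220 CPM in HFD and 1812 ± 217 CPM in HFD+Mino, and its log2 fold change was 0.17 ± 0.20 between HFD and Control (FDR 0.673) and -0.23 ± 0.20 between HFD+Mino and HFD (FDR 0.416). Hsp90aa1 made up 21.8 ± 3.70%, 20.0 ± 1.03% and 25.6 ± 6.02% of the HSP90 counts in the same order of groups (SD, n = 3, exact two-sided permutation p = 0.5 for HFD against Control, 0.1 for HFD+Mino against HFD and 0.5 for HFD+Mino against Control). Every HFD+Mino share was above every HFD share, and the difference of 5.67 percentage points was 2.20 without HFD+Mino replicate 2.

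Hspb1 (chr5:135887919-135889563), a small heat shock protein that holds unfolded proteins and protects actin, varied more between mice than any other member in HFD and in HFD+Mino, by the coefficient of variation. It stood at 9.89, 6.97 and 8.15 CPM in Control, 3.41, 9.14 and 8.74 CPM in HFD and 23.2, 8.51 and 7.24 CPM in HFD+Mino. HFD+Mino replicate 1 was high and HFD replicate 1 was low, and the other 7 mice lay close together. The log2 fold change of 0.86 ± 0.48 between HFD+Mino and HFD (FDR 0.202) was 0.14 without HFD+Mino replicate 1, and with the trend on exon length removed it turned to -0.20 (FDR 0.784). Hspb1 is the shortest member, with 1031 nt of exon, and 51.6% of its windows occur in the copy Hsp25-ps1.

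Hspd1 (chr1:55077833-55088243, minus strand) works in the mitochondrial matrix, where it folds imported proteins with its partner HSP10. It was at 203, 206 and 178 CPM in Control, 206, 211 and 217 CPM in HFD and 157, 212 and 168 CPM in HFD+Mino. The HFD mice lay just above all Control mice, by a log2 fold change of 0.11 ± 0.19 (FDR 0.789), an order whose share of all tested genes was not counted. Between HFD+Mino and HFD the log2 fold change was -0.24 ± 0.19 (FDR 0.378), and HFD+Mino replicate 2 lay inside the HFD range. Both differences moved with the settings of the analysis, omissions of 1 library aside. Between HFD+Mino and HFD the value ran from -0.54 to -0.22 (FDR 0.0181 to 0.579). Between HFD and Control it ran from 0.07 to 0.59 (FDR 0.176 to 0.923). Of its windows 42.8% occur in the copy Hspd1-ps3.

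The spread between mice of a group also differed among members. The coefficient of variation of Hspa8 was 7.39% to 8.49% in the 3 groups, and that of Hspb1 was 17.6% in Control and 68.3% in HFD+Mino. For Hsf1 it was 4.02% in HFD and 37.4% in HFD+Mino.

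The rest of the chaperone network was followed in a list of 52 genes, all of which were tested. In the 3-way quasi-likelihood test 0 of the 52 were called at FDR under 0.01, where 2.13% of all genes were called. DESeq2 called 3, where it called 13.5% of all genes. At FDR under 0.05 with the 1.5-fold distance 3 passed, Bag1, Hspa12a and Hsf2. Of all genes 6.37% were HFD-higher and 6.65% HFD-lower there. In HFD+Mino against HFD, 1 of 52 was called higher and 1 lower at FDR under 0.01 (1.98% and 2.16% of all genes), and 3 were higher and 8 lower at FDR under 0.05 with a 1.5-fold difference (14.6% and 12.9% of all genes). Between HFD and Control 0 were called, where 0.317% of all genes were called higher and 1.42% lower. At the looser FDR 2 were higher (Hsf2 and Ptges3, the latter named after its values were seen) and 1 lower (Bag1), beside 2.57% and 3.21% of all genes. The median log2 fold change of the list was -0.07 between HFD and Control and 0.10 between HFD+Mino and HFD.

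Bag1, which encodes a nucleotide exchange factor that links HSP70 to the proteasome, rose between HFD and HFD+Mino. It stood at 209 ± 46.6 CPM in Control, 77.3 ± 24.2 CPM in HFD and 258.4 ± 59.4 CPM in HFD+Mino. Every HFD mouse was below the other 6, an order that 9.62% of all tested genes showed. The log2 fold change was 1.74 ± 0.29 between HFD+Mino and HFD (FDR 0.00597) and -1.44 ± 0.29 between HFD and Control (FDR 0.0163). Hspa12a, a distant HSP70 relative, fell from 133 ± 37.5 CPM in HFD to 52.5 ± 5.48 CPM in HFD+Mino (log2 fold change -1.34 ± 0.26, FDR 0.00949) and was at 90.0 ± 21.6 CPM in Control. It belongs to the 6 other HSP70 and HSP110 genes of the list, of which 4 were lower in HFD+Mino than in HFD at FDR under 0.05 with 1.5-fold (median log2 fold change of the 6, -0.72) and 0 were higher, where 12.9% of all tested genes were lower. The other 3 were Hspa2 (-0.88, FDR 0.0414), Hspa4 (-0.66, FDR 0.0361) and Hspa4l (-0.79, FDR 0.0154), named after their values were seen. Their fold changes were not recomputed with the length trend removed or with libraries left out. Over the whole list of 52 genes, 8 were lower and 3 higher at that threshold. Without Control replicate 2, any 1 HFD library, or HFD+Mino replicate 1 or 2, neither Bag1 (FDR 0.0142 to 0.0399) nor Hspa12a (FDR 0.0179 to 0.0547) passed 0.01, and with the trend on exon length removed they stood at 0.86 (FDR 0.0282) and -0.78 (FDR 0.0414). With the block in Control and HFD+Mino, Bag1 also passed between HFD and Control (-1.41, FDR 0.00366), but not with the block over all 9 samples (-1.42, FDR 0.0223). Without Control replicate 1 that difference was -1.25 (FDR 0.0584), and without Control replicate 2, HFD replicate 1 or HFD replicate 3 its FDR was 0.0650 to 0.0852.

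Among the genes given whatever their values, Hsf2, a second heat shock factor that can form trimers with HSF1, was at 3.75 ± 0.640 CPM in Control, 9.97 ± 1.72 CPM in HFD and 4.92 ± 1.52 CPM in HFD+Mino. Its log2 fold change was 1.41 ± 0.33 between HFD and Control (FDR 0.0307) and -1.02 ± 0.33 between HFD+Mino and HFD (FDR 0.0394). The HFD mice lay above the other 6, an order that 13.4% of all tested genes showed. The difference between HFD+Mino and HFD was -0.46 (FDR 0.328) with the trend on exon length removed, and without HFD replicate 1 it was -0.89 (FDR 0.132). Between HFD and Control it was 1.05 (FDR 0.0844) with the length trend removed, and without 1 Control or HFD library the FDR was 0.0513 to 0.134. Bag3, an HSF1 target that directs HSP70 clients to autophagy, was at 6.69 ± 0.962, 10.4 ± 3.40 and 5.82 ± 0.994 CPM (0.64 ± 0.31, FDR 0.279, and -0.84 ± 0.31, FDR 0.0675). Hspe1, the HSP10 partner of Hspd1, which shares 112 nt of exon with Hspd1 on the opposite strand, was at 93.5 ± 37.0, 101 ± 10.3 and 216 ± 109 CPM, with a log2 fold change of 1.10 ± 0.41 between HFD+Mino and HFD (FDR 0.0657). Hspa5, the HSP70 of the endoplasmic reticulum, was at 794 ± 162, 891 ± 23.4 and 834 ± 204 CPM (0.17 ± 0.24, FDR 0.733, and -0.09 ± 0.24, FDR 0.797). None of the 8 subunits of the CCT chaperonin, the 5 organelle chaperones or the 8 other J-domain genes passed the FDR of 0.05 with 1.5-fold in HFD+Mino against HFD. Over all tested genes 14.6% were higher and 12.9% lower. Of the 4 other small HSP genes 1 was higher, and of the 8 HSP70 co-chaperones 1 was higher and 2 lower. Of the 10 HSP90 co-chaperones 1 was lower, and of the 3 genes of the HSF family and its regulators 1 was higher and 1 lower.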

How the data were processed

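Bulk RNA-seq libraries (SMARTer amplification and Nextera XT, paired reads) were made from PVN punches of 9 separate mice. The authors aligned reads to mm10 with HISAT2 and assigned them to genes with featureCounts, and the deposited values were raw read counts per gene. Versions, the strand setting and the treatment of reads with several positions were not given in the sources used here, so that counts of near-identical copies and of overlapping genes are uncertain. Depth ran from 17728590 to 42326213 counts. Genes without a symbol (958) took 0.0785% to 0.0932% of counts, and 2154 genes had no count. Counts of replicates differed far beyond sampling error (chi-square over its degrees of freedom 21.0 to 316).

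Counts were tested in edgeR 4.0.16 (R 4.3.3) with filterByExpr (17344 genes), TMM and quasi-likelihood F tests, with 1 mean per group over all 9 samples. Called meant FDR under 0.01 and 1.5-fold, in the 3-way test with HFD as the extreme group and 1.5-fold from the mean of the 3 groups. SE was the log2 fold change over the root of F. The code of the test was run on simulated counts with 200 changed genes. These held none of the length trends or libraries that stood apart in the data, so the run does not show how the test behaves under them. CPM were TMM-scaled and per kilobase of GENCODE M21 exon union, found for 25538 of 27179 genes. Positions and promoters came from RefSeq (GRCm38.p6), positions for 25275 genes. All 10 members matched. Shared windows of 50 nt were searched in GENCODE M21 transcripts. Python 3.11.15 and pandas 2.3.3 were used for the tables.

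The members and lists were chosen with earlier results of these data known. The text names all members, the listed chaperone genes that were called, Hspa5, Hspe1, Bag3 and Hsf2, and the 3 genes most like Hsf1 and like the member with the smallest 3-way FDR. Replicate numbers were checked by correlating the deviations of log2 CPM from group means. Same-numbered Control and HFD+Mino libraries gave r of 0.135, 0.163 and 0.292, all over 0.1, and HFD libraries, whose columns carry another run of numbers, gave -0.152 to -0.00624. Differently numbered Control and HFD+Mino libraries gave -0.162 to 0.0255. For each gene the 3 deviations of a group sum to 0. Low values for different numbers therefore follow from positive values for the same numbers and are not separate evidence for the pairing. Some other libraries with different numbers reached values like those of the pairs, such as Control replicate 2 with HFD replicate 1 (r 0.167). Only the counts give this pairing of Control and HFD+Mino, and no source names a shared litter or batch. Alternatives were DESeq2 1.42.0, RLE size factors, the likelihood ratio test, no filter, a mean count of at least 50, omission of Rn45s and mitochondrial genes, replicate blocks, trends on exon length or GC removed, other thresholds, the 6 samples of a pair alone and each library left out. The trend on the GC-richest 100 nt and the summed HSP70 pair were chosen after the data were seen.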

Additional observations from a re-analysis of the deposited data

How the results depend on the processing

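Between HFD and Control and between HFD+Mino and Control, 0 members were called under every alternative run. Over all tested genes, the runs with all 3 groups called 0.335% to 6.84% for HFD against Control. For HFD+Mino against Control they called 0% to 6.28%. In the 3-way test DESeq2 called 1 member (13.5% of all genes) and the other alternatives 0 (0.0168% to 13.4%). Between HFD+Mino and HFD, DESeq2 called 3 members (22.4% of all genes), the replicate block in Control and HFD+Mino alone 2 (25.6%), that block with the length trend removed 1 (15.6%) and an FDR of 0.05 3 (27.4%), while the block over all 9 samples called 0. With 1 library left out the count ran from 0 to 1, the latter without HFD+Mino replicate 3 (21.4% of all genes). The 3 members under FDR 0.05 in this comparison became 1 with the trend on the GC-richest 100 nt removed, 2 with the block over all 9 samples, 2 with no filter (Hsph1, FDR 0.0712) and 0 to 3 with 1 library left out. With the length trend removed the count was again 3, but not in 1 direction. Hspa1a and Hspa1b were lower in HFD+Mino than in HFD, and Hsf1, in place of Hsph1, was higher (0.86, FDR 0.0465). Of the 52 other chaperone genes, 0 were called in the 3-way test (2.13% of all genes). The count was 3 by DESeq2 (13.5%), the likelihood ratio test (12.9%) and the block in Control and HFD+Mino alone (13.2%). It was also 3 with that block and the length trend removed (8.11%) and at an FDR of 0.05 (13%). It was 1 without a filter (5.19%), with a mean count of at least 50 (3.01%) and with the length trend removed (2.09%). With 1 library left out this count ran from 0 to 3, the latter without HFD+Mino replicate 3 (13.4% of all genes). The block changed no other call of the members at an FDR of 0.01. Over all genes, the 3-way count was 369 in edgeR, 2342 in DESeq2, 2234 by the likelihood ratio test, 2283 with the block in Control and HFD+Mino alone, and 3 without HFD replicate 3. The cause was not tested.

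Of the recomputed fold changes of the members, 629 kept their direction and side of the threshold, 7 passed it and 30 changed sign, all of them with FDR above 0.5. With the length trend removed, alone and with the block, the reversed values were -0.019 and -0.016 for Hsph1 and 0.020 and 0.031 for Hsp90aa1 between HFD and Control, -0.035 and -0.031 for Dnajb1 and -0.20 and -0.28 for Hspb1 between HFD+Mino and HFD, and 0.046 and 0.039 for Hspa8 and -0.25 and -0.32 for Hspb1 between HFD+Mino and Control. Hsf1 between HFD+Mino and Control was 0.026 with the length trend removed alone. With the trend on the GC-richest 100 nt removed, Hspa8 was -0.17 between HFD+Mino and HFD and Hspd1 0.15 between HFD+Mino and Control. In the fit of 6 samples, Hspa8 was -0.0028 between HFD+Mino and HFD and Hsp90aa1 0.0033 between HFD and Control, where the block gave 0.012 over all 9 samples and 0.0060 in Control and HFD+Mino alone. With 1 library left out, values that changed sign ran from -0.14 to 0.13 for Hsp90aa1 and -0.45 to 0.10 for Hspb1 between HFD and Control, -0.049 to 0.078 for Hspa8 and -0.13 to 0.21 for Dnajb1 between HFD+Mino and HFD, and -0.41 to 0.071 for Hsf1, -0.48 to 0.19 for Hspa1b and -0.085 to 0.92 for Hspb1 between HFD+Mino and Control. Counts of 51 to 408 per library limit the precision of Hspa1a and Hspa1b.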
